A study of Homo sapiens with 8 samples.

Results

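The mRNAs of 8 secreted factors that cells are known to release under mitochondrial or hypoxic stress were followed: GDF15, FGF21, STC1, STC2, VEGFA, ADM, ANGPTL4 and PTHLH. They were chosen by gene symbol from the 61806 genes of the deposited table, of which 32119 had a count in at least 1 library, and each symbol matched 1 gene. The cells were N/TERT-1 cells, a line of human epidermal keratinocytes immortalized with telomerase, wild type in both groups. Ethanol, the solvent, was given to 4 cultures (ethanol), and 4 cultures received oligomycin, which blocks the mitochondrial ATP synthase, together with antimycin A, which blocks complex III of the respiratory chain (O/A). O/A lasted 4 hours. For N/TERT cells its usual makeup was oligomycin at 10 µM and antimycin A at 4 µM, but the sample labels give neither time nor dose for these cultures. The 4 cultures of a group came from independent experiments on a single cell line, so their spread does not cover differences between donors.

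These factors leave the cell and act on other tissues or on neighbouring cells. GDF15 signals to the brainstem and lowers appetite, and FGF21 is an endocrine fibroblast growth factor that adjusts lipid and glucose use. Both are called mitokines because they are released when mitochondria fail. STC1 and STC2, the stanniocalcins, are glycoproteins, and STC2 inhibits the protease PAPPA, which frees insulin-like growth factors. VEGFA drives the growth of blood vessels, ADM (adrenomedullin) widens vessels and tightens their endothelium, ANGPTL4 inhibits lipoprotein lipase, and PTHLH is the parathyroid hormone-like hormone that keratinocytes make in quantity. A pair of pathways is known to switch on several of these genes: the integrated stress response, in which the factor ATF4 is translated when eIF2α is phosphorylated, and the hypoxia response, in which HIF-1 is stabilized when prolyl hydroxylases stop working.

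Ethanol libraries held 17210404 to 20999927 counts in total and O/A libraries 17689760 to 19263046. Libraries of the same condition differed from each other by 1.72 to 5.48 times the sampling noise (chi-square per degree of freedom over 12464 genes), and libraries of different conditions by 49.9 to 60.3 times, and no pair of libraries was identical. The label of the cells held, since all 9 keratinocyte markers examined were expressed, with a summed level of 4809 to 5095 FPKM (fragments per kilobase of exon, scaled to library size) in ethanol and 4366 to 4531 FPKM in O/A. Summed levels of the markers of other skin cells were low in both groups. Fibroblast markers summed to 2.42 to 2.95 FPKM in ethanol and 2.45 to 2.69 in O/A, nearly all of it COL1A1, melanocyte markers to at most 0.66 FPKM, with MLANA and TYR at 0 in every library, endothelial markers to at most 0.08 and Langerhans and myeloid markers to at most 0.07, with CD207 at 0.

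O/A split the 8 factors into 3 that rose, 2 that fell and 3 whose mRNA was too scarce to test. STC2 rose 19.98-fold, GDF15 7.49-fold and VEGFA 6.66-fold, whereas ADM fell to 0.472 and PTHLH to 0.694 of its ethanol level. STC1, FGF21 and ANGPTL4 had at most 8 counts in any library. Genes were tested with edgeR's quasi-likelihood test when they had at least 10 counts in at least 4 libraries, which left 14893 genes, and a gene was called at an adjusted p of at most 0.05 and an absolute log2 fold change above 0.25. Fold changes of O/A over ethanol are from this fit unless another scale is named. The fit adjusts each library size by a TMM factor, 1.01 to 1.02 in ethanol and 0.982 to 0.988 in O/A. FPKM leaves this factor out, so ratios of mean FPKM differ slightly from the fold changes given. Of all genes tested, 34.7% were called, 15.8% upregulated and 18.9% downregulated, so a call by itself was common in these data. The libraries of both groups did not overlap in scaled counts for 47.6% of genes tested, and for each of the 5 factors that could be tested. In bulk RNA, fewer cells that express a gene and less of its RNA per cell cannot be told apart.

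**Figure D1:**
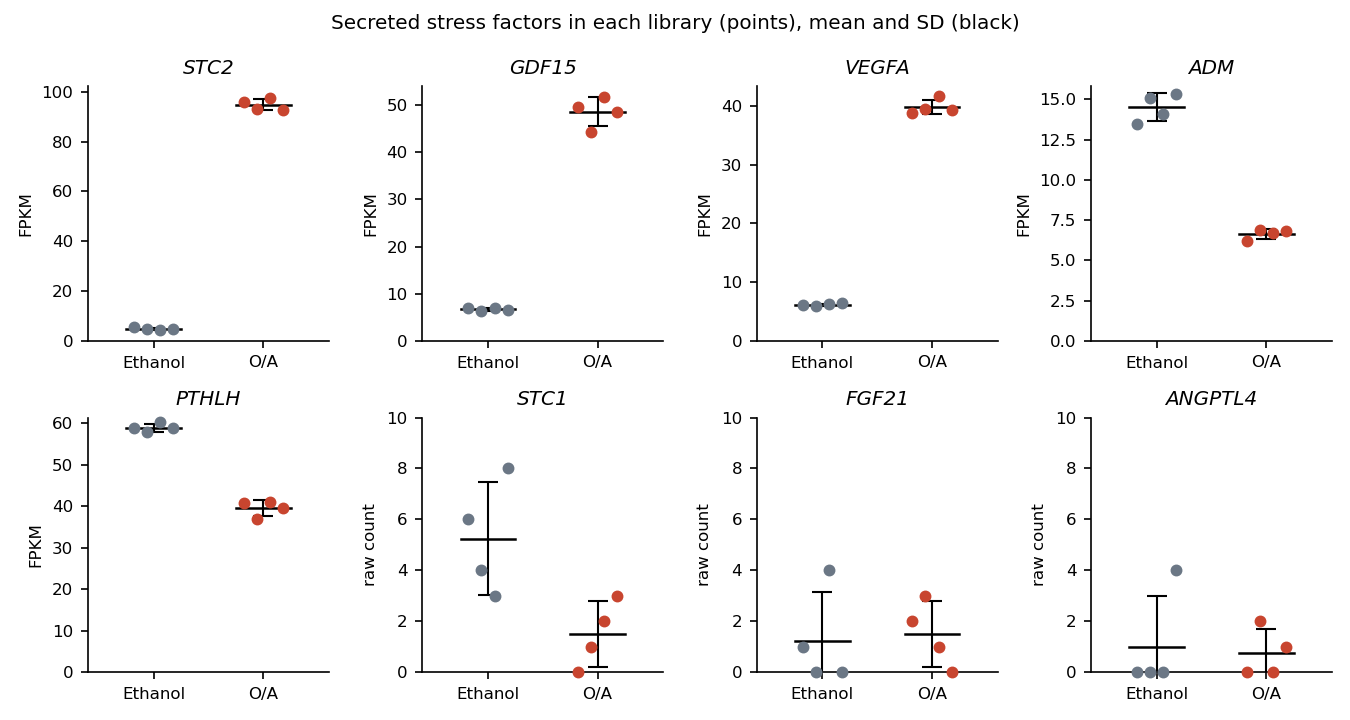
Level of each factor in every library, as FPKM for the 5 genes that could be tested and as raw counts for STC1, FGF21 and ANGPTL4 (points, 4 libraries per condition; black bars, mean and SD). The O/A points of STC2, GDF15 and VEGFA all lie above the ethanol points, those of ADM and PTHLH all lie below, and the last 3 genes stay at 8 counts or fewer.

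The promoter windows of 5 of these genes are printed here so that the factors that rose, fell or stayed near 0 can be compared at the level of sequence. Each is the RefSeq window of 250 bases before and 50 bases after the start site (GRCh38.p14), read 5′ to 3′ on the strand of the gene. The windows of GDF15, PTHLH and ANGPTL4 lie wholly inside the gene intervals given below, so the outer 5′ ends of these genes were not searched. Windows matched by symbol were used for 6 of the 8 genes, without VEGFA and STC1, and that of ANGPTL4 is described but not shown. Of the factors that rose, only STC2 and GDF15 are thus compared. Capitals mark matches, on either strand, to the HIF core ACGTG or GCGTG, the core of the ATF4 and C/EBP composite site TGATGNAA, the cyclic AMP response element TGACGTCA, the AP-1 site TGANTCA and the TATA box core TATAAA.
STC2, rose, chr5:173328365-173328664, minus strand: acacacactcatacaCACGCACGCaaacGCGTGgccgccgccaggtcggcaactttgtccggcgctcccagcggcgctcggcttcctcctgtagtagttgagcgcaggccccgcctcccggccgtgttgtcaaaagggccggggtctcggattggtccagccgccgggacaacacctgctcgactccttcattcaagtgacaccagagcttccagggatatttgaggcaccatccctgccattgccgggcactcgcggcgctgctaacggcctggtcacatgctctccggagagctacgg
GDF15, rose, chr19:18385908-18386207, plus strand: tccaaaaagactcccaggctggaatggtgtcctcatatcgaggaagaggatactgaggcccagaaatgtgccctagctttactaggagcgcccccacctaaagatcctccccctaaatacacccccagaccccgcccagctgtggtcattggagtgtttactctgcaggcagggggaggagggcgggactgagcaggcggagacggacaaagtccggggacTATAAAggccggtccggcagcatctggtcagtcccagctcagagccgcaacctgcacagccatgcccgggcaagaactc
ADM, fell, chr11:10304823-10305122, plus strand: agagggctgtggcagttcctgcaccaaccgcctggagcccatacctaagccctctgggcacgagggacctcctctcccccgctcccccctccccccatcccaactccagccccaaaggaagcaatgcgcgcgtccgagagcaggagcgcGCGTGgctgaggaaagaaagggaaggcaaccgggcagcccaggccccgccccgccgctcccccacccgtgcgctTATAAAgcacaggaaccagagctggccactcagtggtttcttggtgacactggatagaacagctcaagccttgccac
PTHLH, fell, chr12:27969927-27970226, minus strand: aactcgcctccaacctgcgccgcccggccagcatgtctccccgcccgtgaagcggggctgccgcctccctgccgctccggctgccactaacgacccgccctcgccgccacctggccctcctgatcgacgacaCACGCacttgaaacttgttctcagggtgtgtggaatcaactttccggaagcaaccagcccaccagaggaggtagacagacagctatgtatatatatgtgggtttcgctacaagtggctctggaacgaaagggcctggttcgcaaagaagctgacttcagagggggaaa
FGF21, too low to test, chr19:48755274-48755573, plus strand: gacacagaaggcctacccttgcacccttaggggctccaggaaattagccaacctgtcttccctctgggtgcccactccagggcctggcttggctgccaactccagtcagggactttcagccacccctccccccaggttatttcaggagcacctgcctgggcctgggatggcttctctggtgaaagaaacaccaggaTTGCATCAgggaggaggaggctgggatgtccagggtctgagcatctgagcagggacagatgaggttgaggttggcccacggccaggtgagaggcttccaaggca

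Matches occurred in windows of factors that rose, fell and stayed low. GCGTG or its reverse complement occurred 3 times in the window of STC2, where the 2 reverse-strand matches share a base, once in that of ADM and once in that of PTHLH, and it occurs in 36.4% of 34796 distinct RefSeq windows of this length. The GDF15 window held neither HIF core. ACGTG, found in 21.4% of windows, occurred among these 6 only in ANGPTL4. The TATA core, held by 11.6% of windows, lay at position -29 from the start site in GDF15, at -27 in ADM and at -29 in ANGPTL4. TGATGNAA, held by 3.63% of windows, matched only in FGF21, at position -54 on the reverse strand. None of the 6 windows held TGACGTCA, present in 1.84% of windows, or TGANTCA, present in 7.73%. These are matches of letters in a short window. They show no binding, and a missing match says nothing about sites elsewhere.

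STC2 gave the largest change of the 5 genes tested. It lies on the minus strand of chromosome 5 from 173314723 to 173328447 (GRCh38). In ethanol it had 5.60, 4.69, 4.57 and 4.74 FPKM in replicates 1 to 4, and in O/A 95.98, 93.23, 97.69 and 92.66 FPKM. The lowest O/A library was 17.02-fold above the highest ethanol library in TMM-scaled CPM (counts scaled to library size). The log2 fold change was 4.32 (SE 0.041, edgeR quasi-likelihood test, adjusted p = 1.66e-39), the 4th largest rise among the 14893 genes tested. By its mean FPKM, STC2 moved from rank 6933 to rank 336 among all genes of the table, and from 4.90 ± 0.472 to 94.9 ± 2.36 FPKM (SD, n = 4). The ethanol libraries varied more around their mean (coefficient of variation 9.63%) than the O/A libraries did (2.49%), with ethanol replicate 1 the highest of its group.

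GDF15, a circulating marker of mitochondrial disease, lies on the plus strand of chromosome 19 from 18374731 to 18389176. Its ethanol libraries had 7.01, 6.35, 6.93 and 6.48 FPKM, and its O/A libraries 49.60, 44.36, 51.74 and 48.47 FPKM. All O/A values were at least 6.48-fold above all ethanol values in scaled counts, and O/A replicate 2 was the lowest of its group. The mean went from 6.69 ± 0.326 to 48.5 ± 3.10 FPKM (SD, n = 4), a log2 fold change of 2.90 (SE 0.052, edgeR quasi-likelihood test, adjusted p = 1.43e-40) and the 26th largest rise. Its rank by level went from 5728 to 750.

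VEGFA lies on the plus strand of chromosome 6 from 43770184 to 43786487. The ethanol libraries had 6.08, 5.98, 6.20 and 6.42 FPKM and the O/A libraries 38.86, 39.51, 41.60 and 39.35 FPKM, with O/A replicate 3 the highest. The mean rose from 6.17 ± 0.189 to 39.8 ± 1.21 FPKM (SD, n = 4), a log2 fold change of 2.74 (SE 0.030, edgeR quasi-likelihood test, adjusted p = 1.13e-51) and the 32nd largest rise. FPKM divides by the union of all annotated exons, which is 14431 bases for VEGFA against 1350 to 5062 for the other 7 genes, so its FPKM is the value most dependent on that choice of length. An unnamed gene of 188 bases, ENSG00000272114, lies within VEGFA on the opposite strand and moved alike, at 14 to 19 counts under ethanol and 97 to 115 counts under O/A (log2 fold change 2.77). Whether reads were counted by strand is not given in the sources used here, so these reads cannot be told apart from those of VEGFA.

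ADM, on the plus strand of chromosome 11 from 10305073 to 10307397, went the other way. It had 13.48, 15.08, 14.12 and 15.36 FPKM in ethanol and 6.18, 6.88, 6.68 and 6.84 FPKM in O/A, so that every O/A library lay below every ethanol library. The mean fell from 14.5 ± 0.868 to 6.65 ± 0.322 FPKM (SD, n = 4), a log2 fold change of -1.08 (SE 0.061, edgeR quasi-likelihood test, adjusted p = 2.86e-21). In scaled counts the lowest ethanol library was 1.91-fold above the highest O/A library.

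PTHLH, on the minus strand of chromosome 12 from 27958084 to 27972733, was the most highly expressed of the 8 genes in ethanol. It had 58.85, 57.74, 60.14 and 58.71 FPKM there and 40.81, 36.78, 41.04 and 39.58 FPKM in O/A, with O/A replicate 2 the lowest. Its mean fell from 58.9 ± 0.986 to 39.6 ± 1.96 FPKM (SD, n = 4), a log2 fold change of -0.53 (SE 0.031, edgeR quasi-likelihood test, adjusted p = 1.95e-20). This was the smallest change of the 5, rank 1462 among the falls of all genes tested, and the libraries of the groups were still 1.36-fold apart at their closest. For each of the 5 genes the exact permutation test of 4 libraries against 4 gave p = 0.0286 (two-sided), which is the smallest that this design allows.

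**Figure D2:**
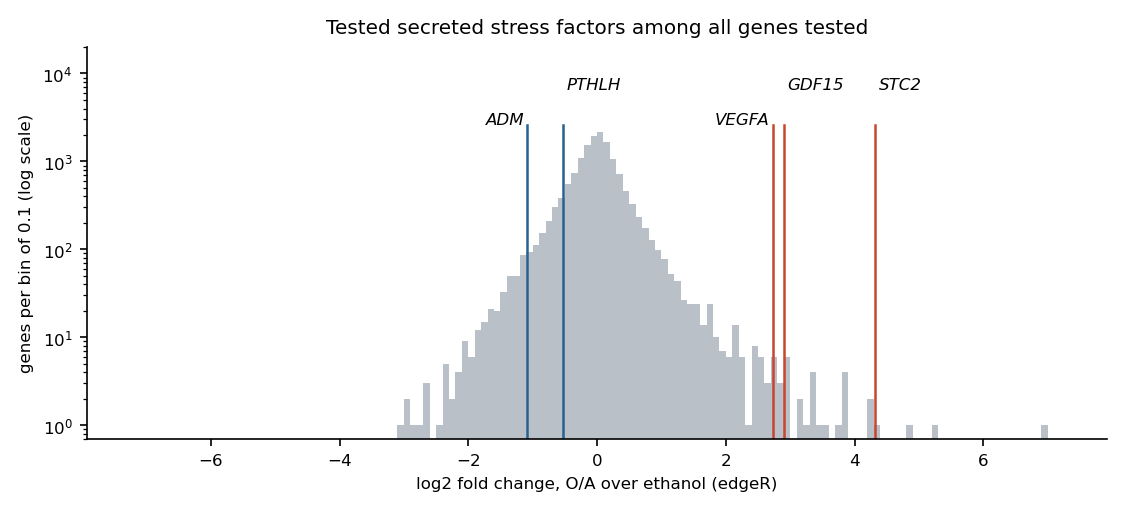
Log2 fold change of O/A over ethanol for all 14893 genes tested (grey bars, genes per bin of 0.1 on a log scale), with the 5 factors as lines, red for a rise and blue for a fall. STC2 at 4.32, GDF15 at 2.90 and VEGFA at 2.74 lie in the thin right tail, ADM at -1.08 in the left shoulder and PTHLH at -0.53 closer to the centre.

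The makeup of this secreted set turned over. Summed over the 8 genes, the level was 89.9 to 92.2 FPKM in ethanol and 220.9 to 238.8 FPKM in O/A, and the share of all counts that fell on them went from between 0.0355% and 0.0366% to between 0.128% and 0.136%. PTHLH supplied 63.9% to 65.2% of the summed FPKM in ethanol libraries and 16.6% to 17.6% in O/A libraries. STC2 went from 4.96% to 6.14% up to 40.8% to 42.2%, and ADM from 14.8% to 16.8% down to 2.67% to 3.11%. In order of mean FPKM, ethanol libraries had PTHLH, ADM, GDF15, VEGFA and STC2. Between GDF15 and VEGFA the ethanol libraries overlapped, at 6.35 to 7.01 against 5.98 to 6.42 FPKM. In O/A the order was STC2, GDF15, VEGFA, PTHLH and ADM, and VEGFA and PTHLH again overlapped, at 38.86 to 41.60 against 36.78 to 41.04 FPKM. The place of VEGFA rests on its exonic length. By mean CPM, which is not divided by length, VEGFA was second in ethanol, with 87.8 against 197.6 for PTHLH, 33.3 for ADM, 24.5 for STC2 and 13.8 for GDF15. It was first in O/A, with 584.8 CPM against 488.7 for STC2, 137.0 for PTHLH, 103.1 for GDF15 and 15.7 for ADM.

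**Figure D3:**
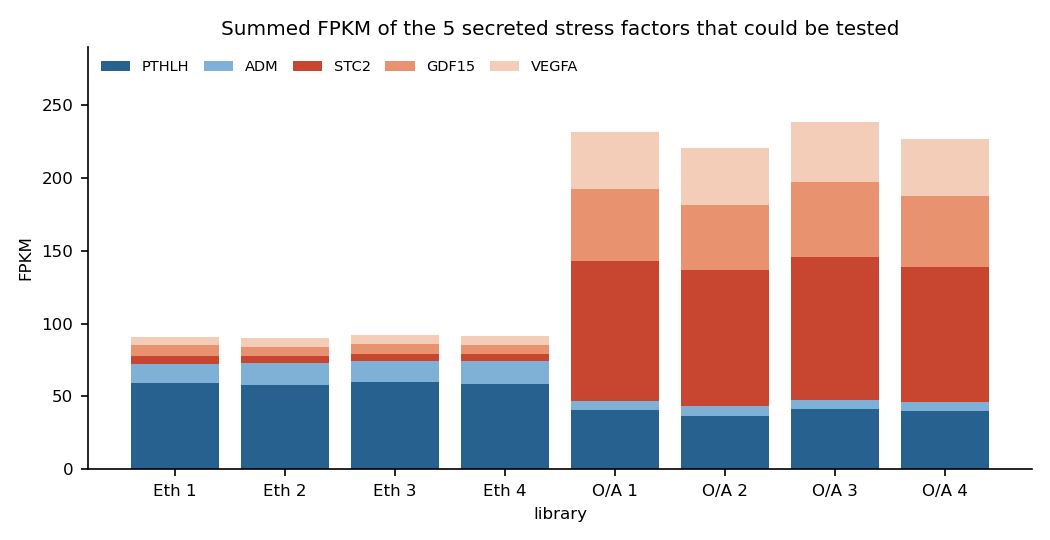
Summed FPKM of the 5 factors that could be tested, stacked by gene for each library (Eth, ethanol). PTHLH and ADM (blue) fill most of each ethanol bar, while STC2, GDF15 and VEGFA (red shades) fill most of each O/A bar, and the bars of a condition are alike.

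The 3 remaining factors stayed at the edge of detection. FGF21, on chromosome 19 from 48755524 to 48758333, had 1, 0, 4 and 0 counts in ethanol and 2, 3, 1 and 0 in O/A. With 5 counts against 6, its ratio of O/A to ethanol was 1.21, with an exact 95% interval for counting error of 0.308 to 5.02, so a 3-fold change in either direction lies within the interval and was not detectable at this depth. ANGPTL4, on chromosome 19 from 8363289 to 8374370, had 4 counts in ethanol, all in replicate 4, and 0, 2, 0 and 1 in O/A, a ratio of 0.757 (interval 0.111 to 4.47). A count of 0 in a library allows up to 0.143 to 0.174 CPM, taking 3 counts as the limit.

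STC1, the paralog of STC2, had 6, 4, 3 and 8 counts in ethanol and 0, 1, 2 and 3 in O/A, and it lies on chromosome 8 from 23841929 to 23854806. Its ratio of 0.288 had a counting interval of 0.0952 to 0.739, which lies below 1 but covers counting error only. An exact permutation test of the 4 libraries against 4 gave p = 0.0571 (two-sided), and without the filter on low counts the adjusted p was 0.0799 (edgeR quasi-likelihood), so no change of STC1 was called. In O/A the mean level was 94.9 FPKM for STC2 and 0.020 for STC1.

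Close relatives of the factors did not move as a block. Of 23 paralogs listed, 9 were expressed highly enough to be tested, 2 rose and 2 fell. The median log2 fold change was 0.0015 against -0.0004 over all genes tested, of which 34.7% were called. ADM2 (intermedin), which shares receptors with ADM, rose while ADM fell. It had 0.55, 0.53, 0.49 and 0.49 FPKM in ethanol and 3.12, 2.90, 3.91 and 3.47 FPKM in O/A, a log2 fold change of 2.75 (SE 0.12, edgeR quasi-likelihood test, adjusted p = 6.92e-26). ADM2 thus went from between 3.09% and 3.92% of the summed FPKM of both mRNAs to between 29.7% and 36.9%. Among the VEGF ligands, PGF (placental growth factor) rose with a log2 fold change of 0.52, from 4.42 ± 0.225 to 6.12 ± 0.455 FPKM (SD, n = 4). VEGFB had a log2 fold change of -0.0006 and was not called. VEGFC, the lymphatic vessel factor, had a log2 fold change of -0.22 (edgeR quasi-likelihood test, adjusted p = 1.18e-05). This small fall was within the threshold, so VEGFC was not called, although it was called down on log2(FPKM + 0.1), at -0.26. The TGF-β ligands TGFB2 (log2 fold change -1.16) and TGFB3 (-1.09, at 8 to 30 counts) fell, though TGFB3 was not called on log2(FPKM + 1), at -0.16. TGFB1 (0.13) and INHBA (0.10) were within the threshold and not called, at adjusted p = 0.00358 and 0.00576 (edgeR quasi-likelihood test). GDF11 (0.0015) was not called either.

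Within the VEGF family VEGFA gained share, while which ligand led in ethanol depended on the scale. In FPKM, VEGFC was ahead in ethanol, with 51.7% to 54.8% of the summed FPKM of VEGFA, VEGFB, VEGFC and PGF, and VEGFA held 12.7% to 13.5%. In O/A libraries VEGFA held 50.5% to 52.4% and VEGFC 25.3% to 27.9%. In raw counts, not divided by length, VEGFA was already ahead in every ethanol library, at 1516 to 1946 counts against 1070 to 1438 for VEGFC, and it had 9919 to 11565 against 986 to 1059 in O/A. The ratio of VEGFA to VEGFC in FPKM was 0.238, 0.234, 0.261 and 0.245 in ethanol and 1.82, 1.84, 2.07 and 1.83 in O/A, a difference of 2.95 on the log2 scale (exact permutation test over 4 libraries against 4, two-sided p = 0.0286, the smallest possible).

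**Figure D4:**
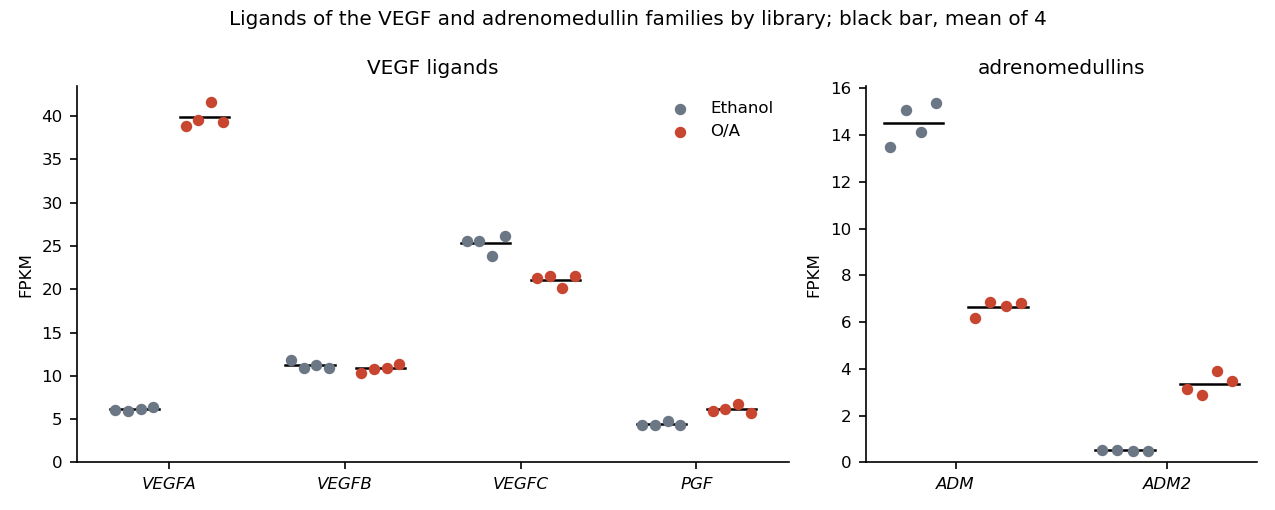
FPKM of the VEGF ligands (left) and of both adrenomedullins (right) in every library, grey for ethanol and red for O/A, with the mean of 4 libraries as a black bar. In FPKM, VEGFA is below VEGFC in ethanol and above it in O/A, whereas in raw counts it is above in both, and ADM2 rises from about 0.5 to between 2.90 and 3.91 FPKM while ADM falls to between 6.18 and 6.88.

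The mRNAs of several receptors of these factors were near 0 in the same cells. Of 17 receptors and co-receptors, 5 could be tested, 1 rose and 1 fell, too few to set apart from the 34.7% of all genes tested that were called. GFRAL, the receptor of GDF15, had at most 1 count in any library and its signalling partner RET at most 4. KLB, the co-receptor of FGF21, had at most 1 count, KDR and FLT1, the main VEGFA receptors, at most 5 and 2, and PTH1R, the receptor of PTHLH, at most 1. CALCRL, the receptor that binds ADM when paired with a RAMP protein, rose with a log2 fold change of 0.82 (SE 0.21, edgeR quasi-likelihood test, adjusted p = 7.53e-04), at 17 to 34 counts under ethanol and 38 to 49 counts under O/A, but on log2(FPKM + 1) the difference was 0.16 and not called. RAMP1, RAMP2 and RAMP3 had at most 8, 2 and 2 counts. FGFR2, the receptor of keratinocyte growth factor, fell with a log2 fold change of -0.53, from 1.23 ± 0.0785 to 0.820 ± 0.0510 FPKM (SD, n = 4). NRP1, a VEGFA co-receptor, was expressed at 9.02 ± 0.114 FPKM in ethanol and 8.26 ± 0.158 in O/A. Its log2 fold change of -0.08 (edgeR quasi-likelihood test, adjusted p = 0.0342) was within the threshold and not called.

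Of 13 enzymes and related proteins that process the factors or are their targets, 7 could be tested and none was called. Of all genes tested, 34.7% were called. FURIN, the proprotein convertase that cuts many growth factor precursors, had 23.9 ± 0.538 FPKM in ethanol and 22.2 ± 0.646 in O/A (SD, n = 4), and PAM, which amidates the end of adrenomedullin, 22.5 ± 1.25 and 22.9 ± 0.639. FAP, a protease that inactivates FGF21, had a log2 fold change of -0.20 (edgeR quasi-likelihood test, adjusted p = 0.00257), within the threshold. PAPPA, the protease that STC2 inhibits, had 10 to 24 counts per library and a log2 fold change of -0.24 (edgeR quasi-likelihood test, adjusted p = 0.487). LPL, the lipase that ANGPTL4 inhibits, had at most 2 counts. PCSK6, at 0.24, was called only when ethanol replicate 1 (0.30), O/A replicate 1 (0.30) or O/A replicate 2 (0.28) was left out.

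Among 16 transcription factors known to act on these genes, 14 rose and none was called down, and the list had a median of 0.82 (log2 fold change). Of all genes tested, 15.8% were called up and 18.9% down, and their median was -0.0004. DDIT3 (CHOP) had a log2 fold change of 3.90, CEBPB of 2.11, ATF3 of 1.98 and CEBPG, a partner of ATF4, of 1.82, all factors of the stress response. ATF4, HIF1A, EPAS1 and ATF6 are added for their roles, after their values were seen. ATF4 rose with a log2 fold change of 1.54, from 92.8 ± 2.44 to 261.7 ± 4.00 FPKM (SD, n = 4). HIF1A (0.34) and EPAS1 (0.48), which encode the oxygen-sensitive HIF subunits, rose by less, and ARNT, their partner, was not called at 0.03. ATF6 rose by 0.27 but was within the threshold under upper-quartile scaling (0.24), on log2(FPKM + 0.1) (0.22) and on log2(FPKM + 1) (0.19). PPARA (0.36) and PPARG (0.38) were also within the threshold on log2(FPKM + 1), at 0.23 and 0.18. On that scale 11 genes of the list were called.

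Other target genes of both stress pathways are given for comparison. The values over all genes tested, 15.8% called up, 18.9% called down and a median of -0.0004, apply to these lists too. Of 15 integrated stress response targets, 14 could be tested and 13 rose, and the median was 2.02 (log2 fold change). Among those that rose were ASNS (5.22), CHAC1 (4.88), CTH (3.15) and VLDLR (2.92). SLC7A5, at 0.16 (edgeR quasi-likelihood test, adjusted p = 2.05e-07), was within the threshold and not called. CEBPG is in this list and in that of the transcription factors, so it is counted and drawn in each. VLDLR had 6 to 10 counts under ethanol and 51 to 76 under O/A, and on log2(FPKM + 1) its difference was 0.22 and not called. All 15 HIF-1 targets could be tested, and 2 rose and 6 fell, with a median of -0.19. LDHA, at -0.21 within the threshold, was called down on log2(FPKM + 0.1) and log2(FPKM + 1), both at -0.26. EGLN3 (-1.59) and EGLN1 (-0.75), prolyl hydroxylases that HIF-1 induces as a brake on itself, and ANKRD37 (-1.57) were the largest falls, NDRG1 (0.59) and P4HA1 (0.42, named after its value was seen) rose, and CA9 was not called at 0.03. VEGFA and ADM, which are themselves known HIF-1 targets and are left out of this list, had log2 fold changes of 2.74 and -1.08. Of 10 PPAR targets, the group to which ANGPTL4 belongs, 5 could be tested and 1, ACADVL (0.29), was called. ACADVL was within the threshold on log2(FPKM + 0.1) and log2(FPKM + 1), both at 0.24, and CPT1A, at -0.22, was called down on log2(FPKM + 0.1), at -0.26, and under upper-quartile scaling, at -0.25. The lists were written with earlier results of these data known, so their counts describe them and test nothing.

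**Figure D5:**
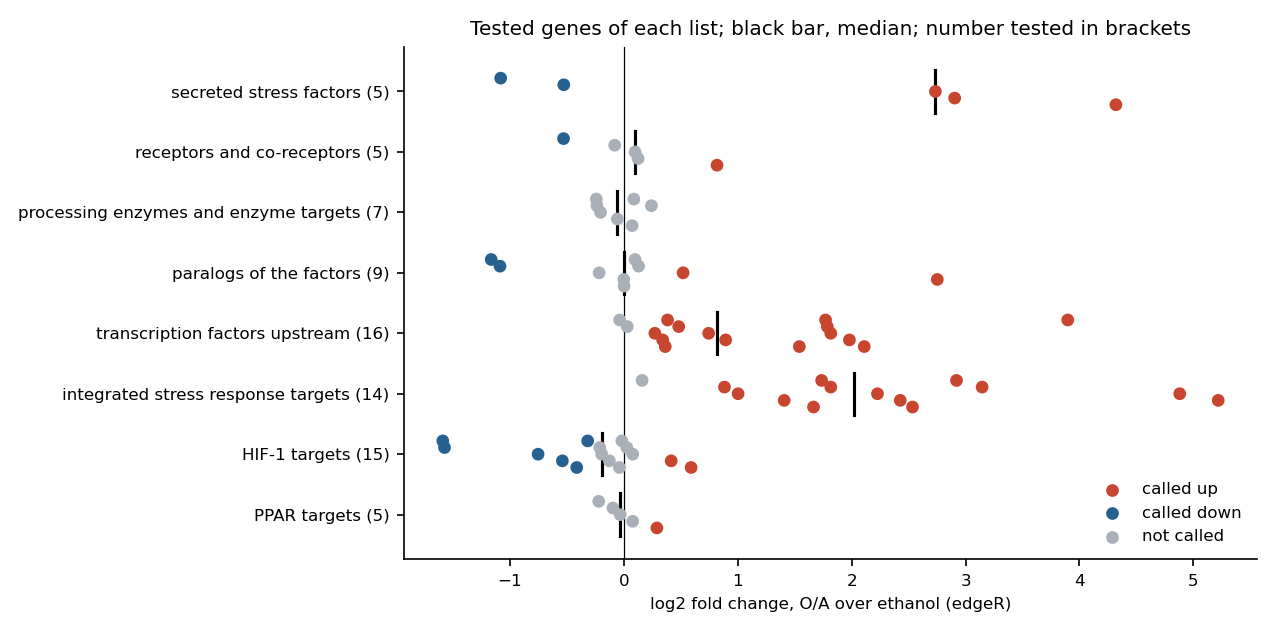
Log2 fold change of every tested gene in the 8 lists (points, red called up, blue called down, grey not called), with the median of each list as a black bar and the number tested in brackets. The transcription factors and the stress response targets lie almost wholly to the right of 0, the HIF-1 targets mostly to its left, and the secreted factors on both sides.

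The genes most like each factor across the libraries were then listed. Likeness was the root mean square difference of log2 CPM, each relative to its ethanol mean, over the 8 libraries and 11646 genes with at least 1 FPKM in a condition. The nearest gene to STC2 was DDIT3 (0.32) and the next HBEGF, a ligand of the EGF receptor (0.35). GDF15 was nearest to HERPUD1 (0.053), an ER protein of the unfolded protein response, and then to CYP1B1 (0.12), an enzyme that oxidizes steroids and xenobiotics. VEGFA was nearest to CYP1B1 (0.098) and then to ADM2 (0.12). BCL9L (0.054) and PIP4K2B (0.058) were nearest to ADM, and CAVIN1 (0.027) and FLVCR1 (0.028) to PTHLH. With 2 conditions only, this measure mostly ranks genes by the size of their change.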

How the data were processed

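mRNA of 8 libraries of N/TERT cells was measured, 4 of ethanol and 4 of O/A, with group and replicate number taken from the sample labels. Paired-end reads were aligned by the authors to GRCh38.p13 with HISAT2 2.0.1 and counted on Ensembl genes with HTSeq 0.6.1, per the submitters' processing notes, and the strand setting and Ensembl release are not given in the sources used here. The deposited counts are raw. The deposited FPKM values were within 0.005 of the count divided by exonic length and library total. A deposited table of the authors' own comparison (fold changes and p-values) was not used.

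Tests on the counts used edgeR 4.0.16 (R 4.3.3, TMM scaling, robust quasi-likelihood test, Benjamini-Hochberg adjustment over 14893 genes), and standard errors are the log2 fold change divided by the root of F. The test was tested on simulated data, with the same dispersion for every gene and far fewer changed genes than were called here. That run does not show its error rate in these data. The genes and lists were chosen with earlier results of these data known. In each list the text names up to 4 called genes with the largest change, receptors too low to test, and others by role or because their call changed with the processing. The planned ratio of STC2 to STC1 could not be formed, because STC1 had a count of 0 in O/A replicate 1. All 8 genes had the same coordinates in GENCODE v44. Alternatives were DESeq2 1.42.0, limma 3.58.1 on log2(FPKM + 0.1) and log2(FPKM + 1), 2 other scalings, 2 other filters, 2 other fold thresholds, a replicate block and leaving out each library. Intervals and limits cover counting error only.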

Additional observations from a re-analysis of the deposited data

Results flagged for a closer look

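One library stood apart from the other 3 of its group for 1 named gene. PGF had 27.0 CPM after TMM scaling in ethanol replicate 3, against 24.5 to 24.9 in the other ethanol libraries. Over 48 groups of 4 libraries examined, chance gives about 2.4 such gaps, and none was found for STC2, GDF15, VEGFA, ADM or PTHLH.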

How the results depend on the processing

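STC2, GDF15, VEGFA and ADM kept their direction and their call under all 18 alternatives, with log2 fold changes of 4.03 to 4.40, 2.69 to 2.96, 2.51 to 2.76 and -1.11 to -1.02. PTHLH lay between -0.57 and -0.48 and lost its call only at a fold threshold of 1 (-0.53). At that threshold the calls among receptors went from 2 to 0, among transcription factors from 14 to 7, among HIF-1 targets from 8 to 2 and among PPAR targets from 1 to 0. With no fold threshold there was 1 call among processing enzymes, 7 among paralogs and 2 among PPAR targets. Over all genes the count went from 5165 to 7999 with no fold threshold and to 797 at a threshold of 1. Among receptors 1 call was left when genes were kept by mean FPKM (at least 1), and also 1 on log2(FPKM + 1), where PPAR targets had 0. With no filter on low counts receptors had 3 calls. ACKR3, too low for the main test at 5 to 17 counts under ethanol and 0 to 8 under O/A, was then called down (-1.65). PPAR targets had 2 calls under upper-quartile scaling, and on log2(FPKM + 0.1) their 1 call was CPT1A, down, in place of ACADVL, up. Leaving out each library in turn gave 0 to 1 calls among processing enzymes. It gave 2.91 to 2.98 for the ratio of VEGFA to VEGFC, where p was 0.0571, the smallest that 3 libraries against 4 allow.

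No pairing of libraries by replicate number was found, since those sharing a number had correlations of 0.039, -0.0021, -0.023 and 0.067. With the replicate block the log2 fold change was 4.32 for STC2 and -0.53 for PTHLH, 5160 genes were called, and no call among the 5 factors changed. Depth limits STC1, FGF21 and ANGPTL4, where only large changes could have been seen.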

Other observations

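Keratinocyte markers were not all level. DSG3, a desmosomal cadherin, rose with a log2 fold change of 0.99, from 52.8 ± 1.57 to 101.9 ± 2.35 FPKM (SD, n = 4), and KRT5, the basal keratin, fell with a log2 fold change of -0.30, while KRT14 (-0.09), TP63 (-0.05) and COL17A1 (0.02) were not called.

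Other genes share the loci of the secreted factors. MIR3189, a microRNA gene of 73 bases within GDF15 on the same strand, had up to 2 counts under ethanol and up to 8 under O/A, too few to test. ENSG00000257042, opposite to PTHLH, had 10 to 19 counts under ethanol and 9 to 15 under O/A (log2 fold change -0.41, edgeR quasi-likelihood test, adjusted p = 0.267), while PTHLH had at least 2356 counts in every library.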
